A study of Homo sapiens with 2 samples.

Results

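Base excision repair (BER) removes single damaged bases from DNA, and 10 of its genes were examined in RNA precipitated with an antibody to QKI, an RNA-binding protein of the STAR family. The 10 genes were UNG, SMUG1, TDG, MBD4, OGG1, MUTYH, NTHL1, APEX1, XRCC1 and PARP1. They were found by gene symbol in the platform annotation, keeping probe sets that carry 1 symbol, and all 10 were measured, by 27 of the 49292 probe sets and as 10 of the 18132 named genes. The cells were SW480, a human colorectal adenocarcinoma line, transfected with 100 pmol of siRNA and collected after 48 h. In siLnc the siRNA was directed against the lncRNA NONHSAT136151, and in siNC it was the negative control. An anti-QKI antibody was used for both lysates, and the recovered RNA was hybridised to PrimeView arrays, 1 array per condition. With 1 array per condition nothing could be checked against a replicate, so no test was run, no p-value is given, and how precise a value is stays limited by there being 2 arrays. The question was whether the amount of these mRNAs recovered with QKI differed after NONHSAT136151 knockdown.

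The labels do not say which siRNA against NONHSAT136151 was used, and the study lists a pair of them beside its control. The letters listed for the second of them, si-NON-2, were the same as those of the control si-NC. NONHSAT136151 itself had no named probe set, and its knockdown was not checked here.

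As background, BER starts with a DNA glycosylase that recognises a wrong or damaged base and cuts it from the sugar. UNG, SMUG1, TDG and MBD4 act on uracil or on thymine mispaired with guanine, OGG1 and MUTYH act on 8-oxoguanine and on the adenine paired with it, and NTHL1 acts on oxidised pyrimidines. APEX1 then nicks the strand at the base-less site, PARP1 binds the nick and makes poly(ADP-ribose), and XRCC1 gathers the polymerase and ligase that close it. Repair continues by a short patch or, with replication proteins such as FEN1 and PCNA, by a long patch. Inherited loss of MUTYH or NTHL1 function is known to cause intestinal polyposis.

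The 2 arrays had a median log2 signal of 3.29 in siLnc and 3.32 in siNC, and when each array was sorted by signal the values at equal rank lay within 0.19 of each other. The normalization behind the signals is not given, so higher and lower are relative to the other probe sets. IgG precipitates and input RNA were not analysed here. Whether more of an mRNA was bound by QKI or more of it was present in the lysate therefore cannot be told apart, nor can fewer cells with an mRNA and less of it per cell. QKI mRNA averaged 6.10 in siLnc and 6.66 in siNC over 6 probe sets. The hybridization controls, bacterial or phage transcripts that do not come from the cells, were lower in siLnc in 18 of 18 probe sets, by log2 differences of -1.30 to -0.20. Of 10 colorectal epithelial markers, 6 had a probe set above background on both arrays, among them EPCAM, KRT8 and CDX2, and CEACAM5, CDH17, KRT20 and VIL1 had none. Markers of glands were taken as absent from a colorectal culture. They averaged 4.60 to 10.09 in siLnc and 1.88 to 5.64 in siNC, with 6 of 6 genes at least 2-fold higher. Among them SLPI (4.91) and PRB3 (5.64) lay above the background given below in siNC too, so their absence was not shown. LYZ and HBB were at least 2-fold higher too, and none of the 26 other measured genes of absent cell types was. The part of such RNA in the differences given below was not tested. Background was set at a log2 signal of 4.70, the 95th percentile in siNC over 102 probe sets that read markers of cell types taken as absent. In siLnc the same markers gave 6.80, and against that value no probe set of UNG or PARP1 would lie above background on either array. Without the gland genes, LYZ and HBB, this percentile was 4.26 in siLnc and 4.29 in siNC.

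Among the 10 BER genes, UNG was the one at least 2-fold higher in siLnc, and none was at least 2-fold lower. Over all genes a 2-fold increase was seen in 0.651% and a 2-fold decrease in 0.121%. PARP1, at 1.72-fold, was the other gene past 1.5-fold, a size reached by 4.26% of all genes. The other 8 genes had log2 differences between -0.16 and 0.23. The median of the 10 was 0.11, beside -0.06 over all genes, and 7 of the 10 lay above 0, beside 39.2% of all genes. Both depended on the scaling: after cyclic loess the median was 0.06 with 5 of the 10 above 0, beside 46.3% of all genes, and after quantile normalization it was 0.03 with 5 of the 10 above 0, beside 42.6%. Counted by probe set, 3 of 27 were 2-fold or more higher in siLnc and 0 were lower by that much, beside 1.51% and 0.185% of all probe sets. Those 3 were both probe sets of UNG and 1 of the 4 of PARP1. Of the 27 probe sets, 16 lay above background on both arrays and 8 on neither.

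**Figure D1:**
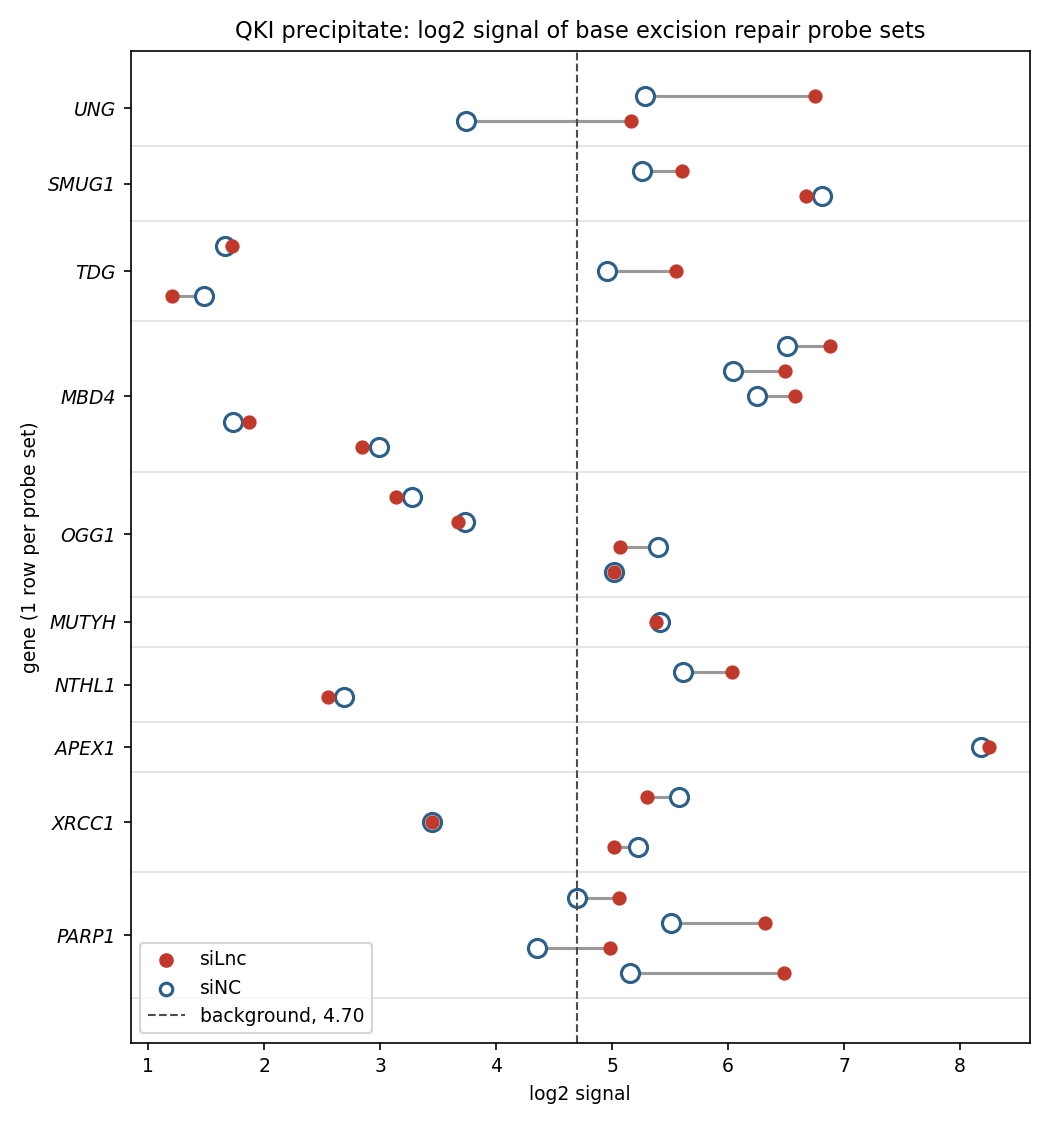
Log2 signal of the 27 probe sets of the 10 BER genes, 1 row per probe set, with siLnc as filled points, siNC as open circles and the background of 4.70 as a dashed line. Both UNG probe sets and all 4 of PARP1 lie further right in siLnc, while most other rows have points close together and 8 rows lie left of the line on both arrays.

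UNG encodes the uracil-DNA glycosylase that removes uracil incorporated during replication or formed by deamination of cytosine. Its first probe set had a log2 signal of 6.75 in siLnc and 5.28 in siNC, and its second had 5.16 in siLnc and 3.74 in siNC. Both were higher in siLnc by nearly the same amount, 1.47 and 1.42. The mean over them was 5.96 in siLnc and 4.51 in siNC, a log2 difference of 1.45 or 2.72-fold, which ranked 20 among 18132 genes. The second probe set lay below background in siNC, so its difference is inexact in size, as are the mean difference and rank of the gene that rest on it. The first lay above 4.70 on both arrays, and its difference alone was 2.77-fold. Among probe sets of like signal, 2-fold increases were seen in 2.44% at a mean log2 signal of 6 to 7, where the first lies, and in 3.33% at 4 to 5, where the second lies. The difference of UNG was between 1.33 and 1.48 under the 4 scalings of the arrays that were compared. UNG codes for a nuclear and a mitochondrial form that arise from different starts, and the annotation does not say which form each probe set reads.

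The RefSeq start windows of UNG are shown because UNG was the BER gene past 2-fold and because the table gives it 2 starts, each with 250 bases before and 50 bases after the start. They come from build GRCh38.p14, plus strand. The windows were searched on both strands for the letters TTTCCCGC, TTTCGCGC, TTTGCCGC and TTTGGCGC, which E2F factors of the cell cycle are known to bind, and matches are in capitals.
UNG upstream start, chr12:109097347-109097646: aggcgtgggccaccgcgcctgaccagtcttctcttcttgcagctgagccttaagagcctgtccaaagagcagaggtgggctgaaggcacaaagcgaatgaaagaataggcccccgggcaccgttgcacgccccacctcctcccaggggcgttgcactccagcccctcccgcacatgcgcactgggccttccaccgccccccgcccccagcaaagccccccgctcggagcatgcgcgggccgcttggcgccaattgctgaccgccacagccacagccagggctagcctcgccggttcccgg
UNG downstream start, chr12:109097922-109098221: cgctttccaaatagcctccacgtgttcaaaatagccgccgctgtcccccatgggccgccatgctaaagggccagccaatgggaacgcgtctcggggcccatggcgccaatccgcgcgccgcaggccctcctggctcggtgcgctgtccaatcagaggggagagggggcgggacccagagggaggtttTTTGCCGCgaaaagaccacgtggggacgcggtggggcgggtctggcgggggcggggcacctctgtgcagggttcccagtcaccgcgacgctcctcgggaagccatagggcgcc
The downstream window held 1 match, TTTGCCGC, and the upstream window held none. Of the 10 genes, 9 matched the window table by symbol, with 12 windows, and the match in UNG was the one among them (8.33% of windows). Of 47 windows of 32 other BER genes 14.9% held a match, and of all 35116 windows 3.31%. The latter belong to 27305 genes and were not matched to the BER windows in base composition or gene type. The 7 other BER genes with a match included POLE2 (log2 difference 1.65) and POLE4 (-0.43), and FEN1 (1.10) had none. A match in a window is a description of letters and says nothing about binding in these cells.

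SMUG1, TDG and MBD4 also remove uracil or thymine from mispairs with guanine, and none of them reached 2-fold. SMUG1, a uracil glycosylase, had 5.60 in siLnc and 5.26 in siNC in its first probe set. Its other probe set had 6.67 in siLnc and 6.81 in siNC. They differed in opposite directions (0.34 and -0.14), and the mean difference of 0.10 was -0.02 after cyclic loess, so no direction is read. TDG, which removes thymine and oxidised forms of methylcytosine, had 1 probe set above background, with 5.55 in siLnc and 4.96 in siNC, a log2 difference of 0.59. Its other probe sets lay far below background, at 1.72 and 1.20 in siLnc and 1.66 and 1.48 in siNC, and drew the mean of the gene down to 0.12. MBD4 binds methylated CpG and removes the thymine left when methylcytosine is deaminated. Its 3 probe sets above background had 6.88, 6.49 and 6.58 in siLnc and 6.51, 6.04 and 6.25 in siNC. All 3 were higher in siLnc, by 0.37, 0.45 and 0.33. All probe sets at a mean log2 signal of 6 to 7, where these lie, had a median of 0.16 and a robust SD of 0.40. The remaining MBD4 probe sets, at 1.87 and 2.84 in siLnc and 1.73 and 2.99 in siNC, were at background, and the mean over all 5 was 0.23. The difference between UNG and each of these 3 genes was not tested.

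The glycosylases for oxidised bases differed little between the arrays. OGG1, which removes 8-oxoguanine, had 5.07 and 5.02 in siLnc and 5.40 and 5.02 in siNC in its probe sets above background. Its other probe sets had 3.14 and 3.67 in siLnc and 3.27 and 3.73 in siNC. None of the 4 was higher in siLnc, and the mean difference was -0.13. MUTYH removes the adenine that polymerases place opposite 8-oxoguanine. It was read by 1 probe set, with 5.38 in siLnc and 5.41 in siNC, a difference of -0.03. NTHL1 had 6.03 in siLnc and 5.61 in siNC in the probe set above background (0.42), while the other, at 2.55 in siLnc and 2.69 in siNC, lay below it. Its mean difference was 0.14. For all 3 genes the differences from 0 were smaller in size than 0.43, the robust SD of all probe sets at a mean log2 signal of 5 to 6. That SD is taken around a median of 0.12, and the OGG1 probe set at 5.07 in siLnc and 5.40 in siNC lay further than 0.43 below it.

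Downstream of the glycosylases, PARP1 stood apart from APEX1 and XRCC1 in size, a difference that was not tested. APEX1, the main endonuclease for base-less sites, had 8.25 in siLnc and 8.18 in siNC in its 1 probe set. This difference of 0.07 was -0.07 after cyclic loess and -0.05 after quantile normalization. XRCC1, the scaffold, had 5.30, 3.45 and 5.02 in siLnc and 5.58, 3.45 and 5.22 in siNC. None of its probe sets was higher in siLnc, and the mean difference was -0.16. PARP1 had 5.06, 6.32, 4.98 and 6.48 in siLnc and 4.70, 5.51, 4.35 and 5.15 in siNC. All 4 probe sets were higher in siLnc, but by unequal amounts of 0.36, 0.81, 0.63 and 1.33. At a mean log2 signal of 5 to 6, where the largest of them lies, 3.29% of all probe sets were at least 2-fold higher. The mean of PARP1 was 5.71 in siLnc and 4.93 in siNC, a log2 difference of 0.78, which ranked 325 among 18132 genes. Over the 2 probe sets that lay above 4.70 on both arrays the mean was 1.07, past 2-fold, as were 1.13% of the 7782 genes read that way. The probe set with a difference of 0.36 was left out of it, with 4.70 in siNC, a signal equal to the rounded background. All 4 PARP1 probe sets lay above the lower background percentile of 4.29, so whether PARP1 passed 2-fold depended on how background was set.

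**Figure D2:**
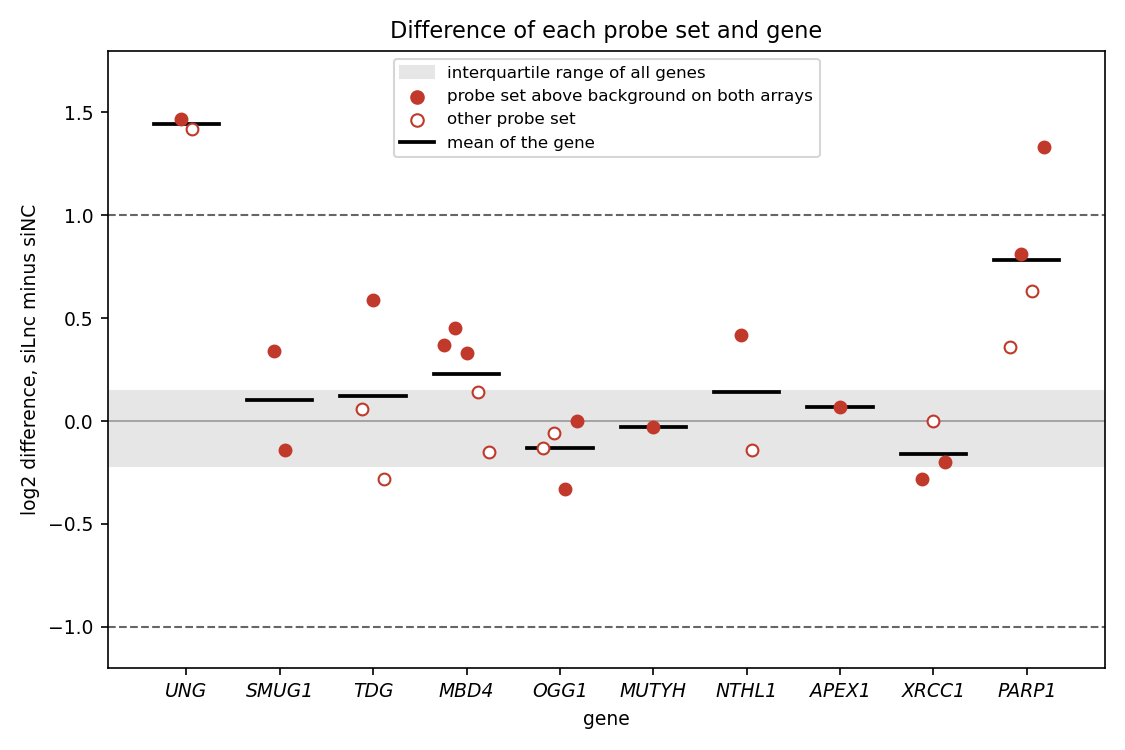
Log2 difference (siLnc minus siNC) of each probe set and, as a black bar, of the mean of each of the 10 BER genes; filled points lay above background on both arrays, the grey band spans the interquartile range of all genes (-0.22 to 0.15), and dashed lines mark 2-fold. UNG lies above the upper dashed line with both probe sets, PARP1 with 1 of 4, and no point reaches the lower line.

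Of the 8 genes read by more than 1 probe set, UNG and PARP1 were the 2 whose probe sets all differed in the same direction. In TDG, MBD4 and NTHL1 the probe sets below 0 were all at background, and the probe sets above background were all higher in siLnc. Restricted to probe sets above background on both arrays, 7 of the 10 genes lay above 0 (61.1% of all genes so read) with a median of 0.24, beside 0.11 for all genes. By Affymetrix naming, an s or x in the identifier marks probes that also match other transcripts, and 8 of the 27 probe sets carried one, in TDG, MBD4, OGG1, XRCC1 and PARP1. They include the TDG probe set at 0.59 and the PARP1 probe set at 0.81, so these values may include another transcript. Neither UNG probe set carried one. In RefSeq, 5 of the 10 genes overlap another gene (SMUG1, OGG1, MUTYH, APEX1 and XRCC1).

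**Figure D3:**
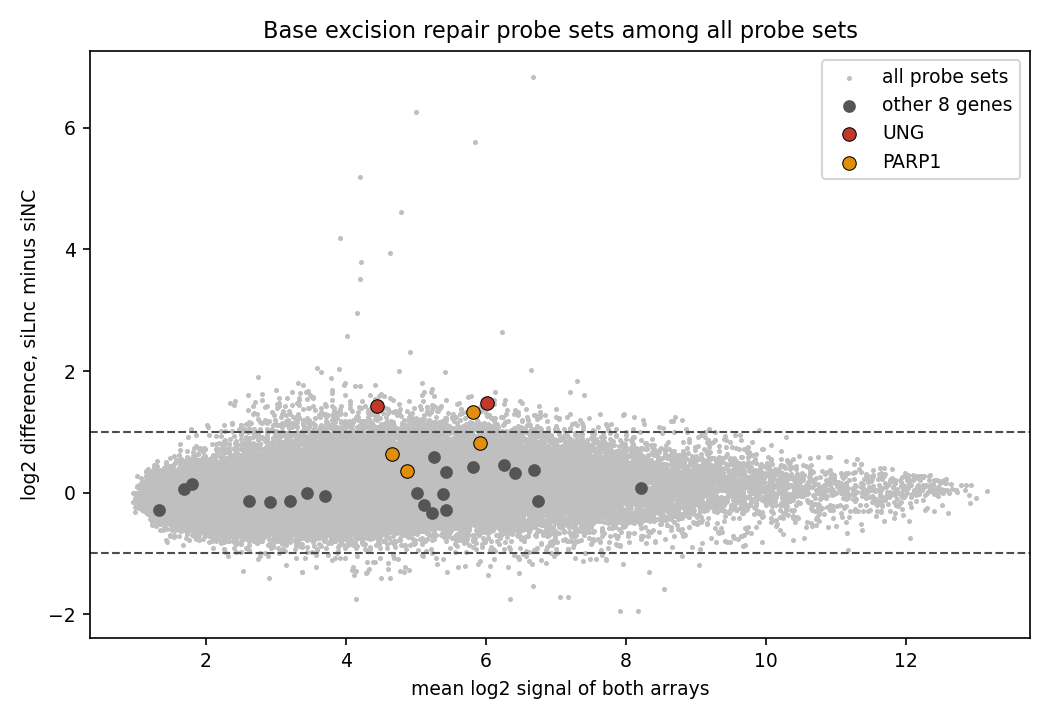
Log2 difference (siLnc minus siNC) against the mean log2 signal of both arrays for all 49292 probe sets (grey) and the 27 probe sets of the BER genes, with UNG in red, PARP1 in orange and the other 8 genes in dark grey; dashed lines mark 2-fold. The UNG points lie at 1.47 and 1.42, near the upper edge of the grey cloud, and the other 8 genes lie within it.

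The other genes of the pathway were taken from lists of 36 genes, of which 34 were measured under a single symbol. Of these, 2 passed 2-fold upward in siLnc and 0 downward, 24 lay above 0 (70.6%), and the median was 0.14, beside 0.651% of all genes past 2-fold upward, 39.2% above 0 and a median of -0.06. Over probe sets above background on both arrays, 18 of the 27 genes still read lay above 0, beside 61.1% of all genes so read. Their median was then 0.29, beside 0.11. Both genes at 2-fold belong to long-patch repair and are also replication genes. FEN1, the endonuclease that trims the displaced flap, had 6.65, 5.99 and 8.14 in siLnc and 5.39, 4.86 and 7.23 in siNC. All 3 probe sets were higher, by 1.26, 1.13 and 0.91, and their mean of 1.10 was 0.98 after cyclic loess. POLE2, a subunit of DNA polymerase epsilon, had 5.94 in siLnc and 4.29 in siNC in its 1 probe set, a difference of 1.65, and its siNC signal lay below 4.70, so that the size is not exact. Over the 17 long-patch genes 13 lay above 0 (76.5%, beside 39.2% of all genes), with a median of 0.28, and POLE4, an accessory subunit of the same polymerase, was the lowest at -0.43. The share of long-patch genes was not taken over probe sets above background, where that of all genes was 61.1%.

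Among the poly(ADP-ribose) enzymes 4 of 5 lay above 0 (80.0%, beside the same 39.2%), with a median of 0.35, and none reached 2-fold. Here too the share was not taken over probe sets above background, where that of all genes was 61.1%. HPF1, the partner that directs PARP1 and PARP2 to serine, had 6.84 in siLnc and 6.09 in siNC (0.75). PARP3 had 4.04 and 6.97 in siLnc and 4.46 and 7.45 in siNC, and both of its probe sets were lower in siLnc (mean -0.45). The further glycosylases resembled most of the 10 genes in size. Of them 2 of 4 lay above 0 (50%, beside 39.2% of all genes), with a median of -0.04. NEIL3 was highest at 0.15, and MPG, which removes alkylated purines, was lowest at -0.26. In end processing and short-patch repair 4 of 6 measured genes lay above 0 (66.7%, beside 39.2% of all genes), with a median of 0.05. For neither list was the share taken over probe sets above background, where that of all genes was 61.1%. POLB, the polymerase of short-patch repair, had 6.62 in siLnc and 6.19 in siNC (0.43), and TDP1, which clears blocked strand ends, had a mean difference of -0.39 with all 4 probe sets lower in siLnc. Of the enzymes that clean the nucleotide pool, DUT, which keeps dUTP low, had 0.38 over 4 probe sets of 0.32 to 0.43, and NUDT1, which destroys oxidised dGTP, had -0.05.

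**Figure D4:**
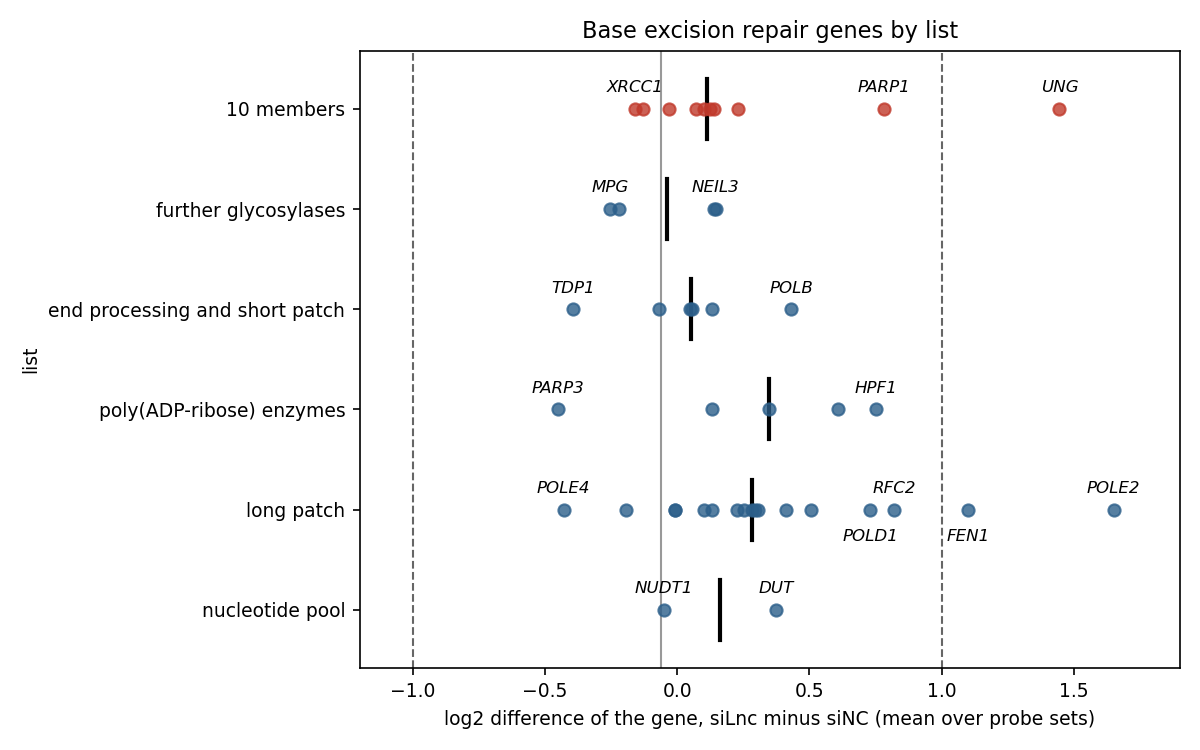
Log2 difference of each gene (siLnc minus siNC, mean over probe sets) for the 10 BER genes and the 5 other lists, with a black bar at the median of each list, a grey line at the median of all genes (-0.06) and dashed lines at 2-fold. UNG, FEN1 and POLE2 lie past 2-fold, and the medians of the long-patch genes (0.28) and the poly(ADP-ribose) enzymes (0.35) lie to the right of the other lists.

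**Figure D5:**
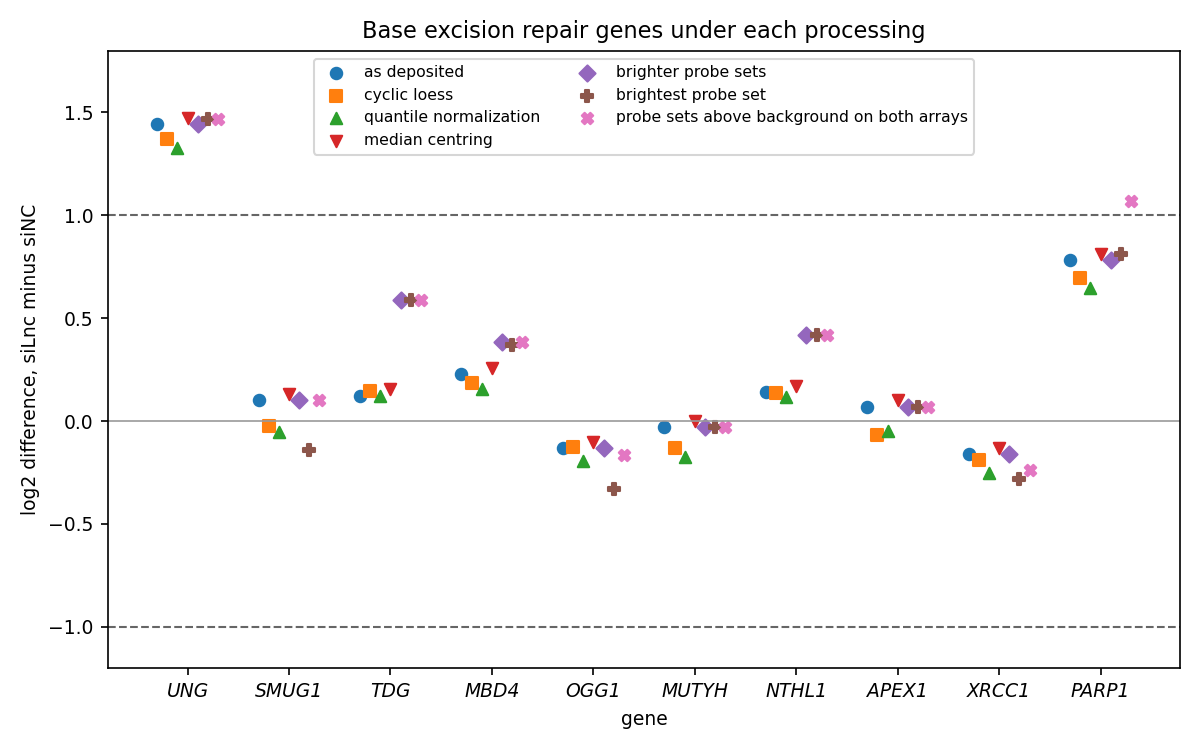
Log2 difference (siLnc minus siNC) of each of the 10 BER genes under 7 ways of processing the same arrays, each with its own marker; dashed lines mark 2-fold. UNG lies above 2-fold in all 7, PARP1 in 1 of 7, and SMUG1, MUTYH and APEX1 lie on both sides of 0 or at it.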

How the data were processed

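For 2 PrimeView arrays the authors deposited a log2 signal for every probe set, rounded to 2 decimals. The base was read from the highest signal, 13.28, which exceeds 11.09, the largest natural log of a 16-bit scan. GCOS is named in the submitters' processing notes, and the normalization is not given in the sources read. Of 49371 probe sets, 79 controls were left out. Of the rest, 44988 carried 1 symbol, 1832 several and 2472 none, and only the first were named. The siNC signal was subtracted from the siLnc signal, and probe sets were averaged per gene. A log2 difference of at least 1 (2-fold) was counted as higher or lower, the fold that the methods state for another array of the study. Counting and averaging were tested on simulated data.

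The genes, lists and background markers were chosen with earlier results of these data known. All 10 genes were named, and from each other list those at 2-fold and the highest and lowest. Start windows were shown for UNG, and the letters searched in them were chosen, with its values known. Alternatives were cyclic loess, quantile normalization, median centring, a filter at the array median (brighter probe sets), the brightest probe set, 1.5-fold and 3-fold thresholds and counting by probe sets. The filter kept a probe set if its higher signal reached the median of that array, so it could pass through 1 condition alone. Keeping only probe sets above background on both arrays was added after seeing the data. Versions were R 4.3.3, limma 3.58.1, Python 3.11.15, numpy 2.4.6, pandas 2.3.3 and matplotlib 3.10.9. Sequences are from RefSeq, GRCh38.p14. QKI recognition letters in the transcripts of these genes, a planned count, were not analysed here.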

Additional observations from a re-analysis of the deposited data

How the results depend on the processing

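UNG was at least 2-fold higher in siLnc under all 6 alternative treatments of the signals, and at 1.5-fold but not at 3-fold. The count of BER genes at that size was 2 at 1.5-fold, 0 at 3-fold, 3 when probe sets were counted, and 2 over probe sets above background on both arrays, where PARP1 had 1.07. Beside these stood 4.26% of all genes at 1.5-fold, 1.51% of all probe sets and 1.13% of all genes above background. The share of all genes at 3-fold was not counted. The median of the 10 genes was 0.24 over brighter probe sets, 0.22 over the brightest probe set and 0.24 over probe sets above background on both arrays, against 0.06 after cyclic loess, 0.03 after quantile normalization and 0.14 after median centring. The median of all genes moved too, to 0.035, -0.06 and 0.11, against -0.02, -0.04 and -0.03 in the same order. The cause of these shifts was not tested. Of the 10 genes 5 lay above 0 after cyclic loess and after quantile normalization, and 7 after median centring. For all genes the shares were 46.3%, 42.6% and 46%, in the same order. Of the other pathway genes, 1 was at least 2-fold higher after cyclic loess, after quantile normalization, with the brightest probe set, above background on both arrays and at 3-fold, and 6 were at 1.5-fold. The share of all genes was 1.13% above background and 4.26% at 1.5-fold, and it was not counted under the other settings named here. FEN1 had 0.98 after cyclic loess, 0.95 after quantile normalization and 0.91 in its brightest probe set, and POLE2 has no probe set above background on both arrays. The median of the other pathway genes was 0.33 over brighter probe sets and 0.29 above background, beside 0.035 and 0.11 for all genes. SMUG1, MUTYH and APEX1 changed sign or reached 0 under another scaling. No paired analysis was possible because there was 1 array per condition, and for the same reason no replicate could be left out.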
